A study of Mus musculus with 12 samples.

Results

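A set of 10 genes of acid and base handling in the intercalated cells of the kidney were examined in the cortex of obstructed and unobstructed mouse kidneys. They were taken by symbol, not by a cutoff on their values, from the 23183 gene symbols measured. Earlier results of these data were known when they were chosen. They are 5 subunits of the vacuolar proton pump that are enriched in intercalated cells (Atp6v1b1, Atp6v1g3, Atp6v1c2, Atp6v0a4 and Atp6v0d2), the transcription factor Foxi1, the anion exchangers Slc26a4 (pendrin) and Slc26a7, and the carbonic anhydrases Car2 and Car4. All 10 were listed for every library, Slc26a7 at 0 in 1 of them, and 9 of them reached at least 1 FPKM (fragments scaled to transcript length and library size) in at least 3 libraries, which was the condition for a test. Slc26a7 did not reach it.

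Intercalated cells lie between the principal cells of the collecting duct and connecting tubule, and they secrete either protons or bicarbonate into the urine. Carbonic anhydrase turns carbon dioxide and water into bicarbonate and a proton. The proton is moved by a V-ATPase, which has a cytoplasmic V1 part that splits ATP and a V0 part in the membrane that carries protons. Bicarbonate leaves through exchangers, on the blood side of proton-secreting cells or, through pendrin, on the urine side of bicarbonate-secreting cells. Many pump subunits exist as a ubiquitous form, found on lysosomes and endosomes of all cells, and a second form with a narrow distribution. Foxi1 is a forkhead factor required for the intercalated cell fate and for expression of several of these genes. Car2 is cytosolic and is found in the proximal tubule as well, and Car4 is anchored to the membrane, also in proximal tubule and endothelium, so neither marks intercalated cells alone. Atp6v0d2 is also expressed in osteoclasts and some macrophages.

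The mice were males 6 to 7 weeks old, C57BL/6N by the design text and C57BL/6 by the sample labels, and were either wild type (WT) or carried a mutant Acot12 allele made with an RNA-guided nuclease and passed through the germline, so that every cell lacks the intact gene (Acot12-/-). Unilateral ureteral obstruction (UUO), which closes the ureter of a single kidney, was performed in both genotypes, and kidney cortex was taken on day 7. The control was the contralateral (CL) kidney, which stayed in an operated mouse and is not a kidney of an unoperated animal. The 4 groups (WT CL, WT UUO, Acot12-/- CL and Acot12-/- UUO) have 3 libraries each, 12 in all.

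Acot12 was listed at 73.8, 52.7 and 78.1 FPKM in WT CL, at 9.98, 16.7 and 21.2 in WT UUO, at 9.14, 9.01 and 6.80 in Acot12-/- CL and at 3.28, 1.80 and 3.86 in Acot12-/- UUO, lower in the mutant on each side, with RNA of the locus still present. The values may have been scaled further between libraries, which the sources used here do not say. If they were not, the steps in the low values give an approximate depth of 12250000 to 16280000 fragments in CL and 18540000 to 23220000 fragments in UUO libraries. Pearson correlations of log2 values between libraries of a group were 0.974 to 0.992, except for Acot12-/- CL replicate 2, which had 0.950 and 0.942 with replicates 1 and 3 of its group. Calls that change without it are given both ways for the genes that were refitted under each alternative. The cortex was bulk tissue, so fewer intercalated cells and less RNA per cell cannot be told apart in any value below. Summed FPKM of 10 proximal tubule markers was 4600 to 8510 in CL and 605 to 2070 in UUO, that of 11 macrophage markers 63.3 to 215 and 834 to 1210, and none of these markers was listed at 0 in any library.

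As background, the stretches just before the annotated starts of the gene for Foxi1 and of genes for 3 exchanger or pump proteins are given. Their activity and the binding of factors to them were not measured. They are read from the RefSeq promoter table (GRCm38.p6) on the strand of the gene, with capitals marking the forkhead core TGTTTAC. RefSeq windows were found for 7 of the 10 genes; Atp6v0d2, Slc26a7 and Car2 had none. Foxi1 lies at chr11:34204338-34208089 on the minus strand with 2 exons in GENCODE vM21 (GRCm38), and its stretch is chr11:34208090-34208339. Slc26a4 (minus strand, chr12:31519827-31559969, 21 exons) is shown by chr12:31559985-31560234. Atp6v1b1 (plus strand, chr6:83742990-83758855, 14 exons) is shown by chr6:83742767-83742989, and Atp6v1g3 (plus strand, chr1:138273738-138289462, 3 exons) by chr1:138273488-138273737.
Foxi1: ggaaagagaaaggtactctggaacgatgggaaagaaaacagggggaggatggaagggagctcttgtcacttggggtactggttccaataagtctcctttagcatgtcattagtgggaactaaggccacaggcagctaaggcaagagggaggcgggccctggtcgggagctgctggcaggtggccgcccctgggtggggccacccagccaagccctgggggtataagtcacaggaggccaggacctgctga
Slc26a4: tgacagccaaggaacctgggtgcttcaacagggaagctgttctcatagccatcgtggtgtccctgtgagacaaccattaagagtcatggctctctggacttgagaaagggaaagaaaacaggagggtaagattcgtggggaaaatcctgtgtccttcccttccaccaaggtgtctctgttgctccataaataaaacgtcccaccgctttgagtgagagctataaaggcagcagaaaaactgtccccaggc
Atp6v1b1: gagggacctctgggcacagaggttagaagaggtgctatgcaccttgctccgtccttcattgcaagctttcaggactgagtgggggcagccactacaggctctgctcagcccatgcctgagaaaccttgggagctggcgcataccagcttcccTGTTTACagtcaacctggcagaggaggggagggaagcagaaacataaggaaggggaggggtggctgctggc
Atp6v1g3: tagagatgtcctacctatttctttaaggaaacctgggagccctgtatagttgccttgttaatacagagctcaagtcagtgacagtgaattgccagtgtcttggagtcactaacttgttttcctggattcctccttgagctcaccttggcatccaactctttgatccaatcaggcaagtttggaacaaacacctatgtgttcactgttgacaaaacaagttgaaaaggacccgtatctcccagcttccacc
The letters TGTTTAC, searched on both strands in windows from 250 bases before to 50 bases after the start, occurred in 1 of the 7 windows. That is the window of Atp6v1b1, on the sense strand 98 bases before the RefSeq start (chr6:83742919-83742925). Of all 32851 windows in the table, 1199 (3.65%) hold the letters.

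In WT CL cortex the 10 genes spanned a wide range of FPKM. Car2 was highest (mean 240.0 ± 21.2 FPKM, SD, n = 3) and lay above Car4 in every library. Car4 (132 ± 33.6), Atp6v1g3 (89.2 ± 23.2) and Atp6v0a4 (75.7 ± 0.546) followed, each overlapping its neighbour. Atp6v1b1 (36.6 ± 3.65) stood apart from the genes on both sides, and Slc26a4, Atp6v0d2, Atp6v1c2 and Foxi1 came next at 27.5, 20.6, 15.1 and 12.7 FPKM, each overlapping the next. Slc26a7 was last at 0.349 FPKM. In WT UUO cortex the order was changed. Foxi1 (14.3) had moved above Atp6v0d2 (11.3), Slc26a4 (8.18) and Atp6v1c2 (4.80), although its libraries still overlapped those of Atp6v0d2. The order between genes depends on the gene lengths used in FPKM.

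**Figure D1:**
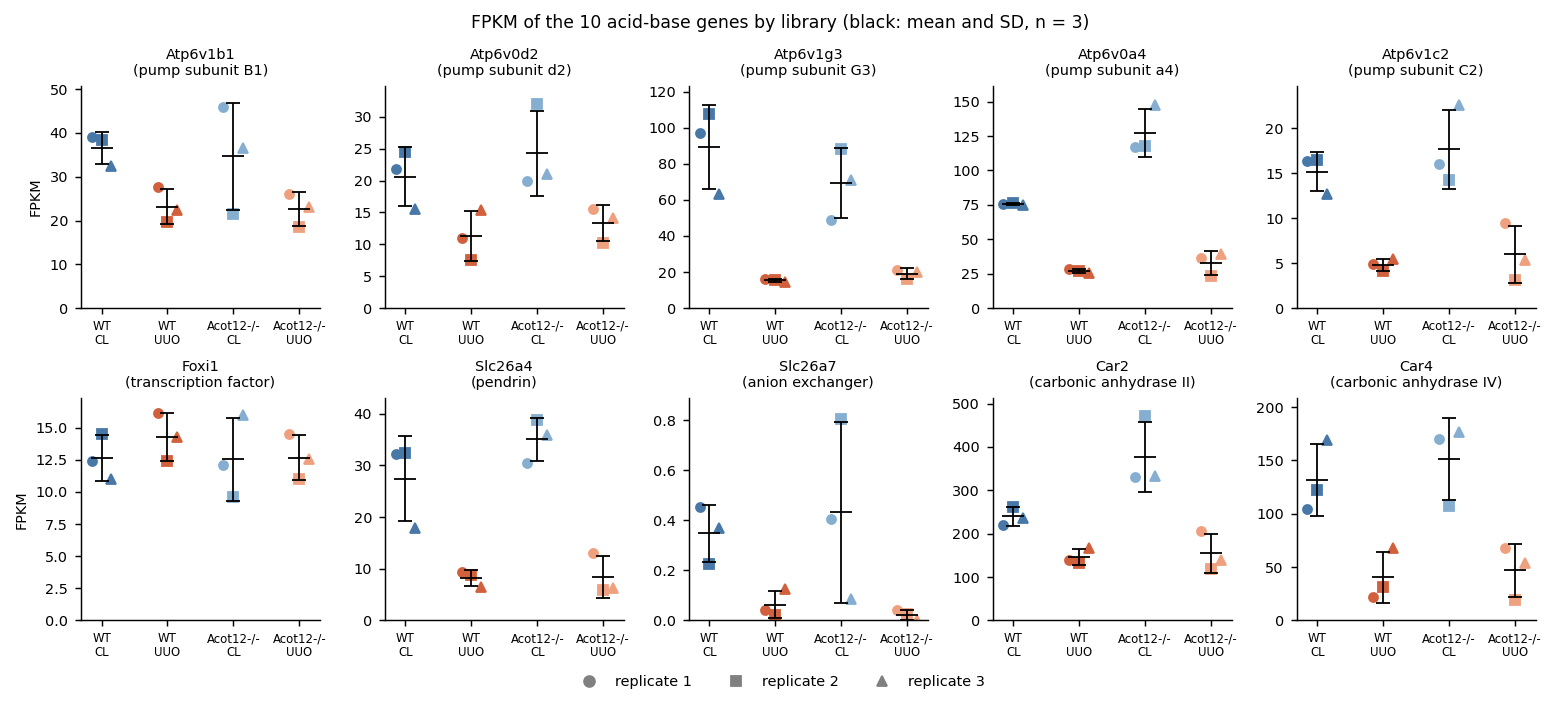
FPKM (vertical axes, from 0) of each of the 10 genes in the 12 libraries, with 3 libraries a group and replicates by symbol; the black mark and bar are the mean and SD. The UUO libraries lie below the CL libraries for 9 of the 10 genes in WT and 8 in Acot12-/-, whereas those of Foxi1 overlap in both genotypes at 9.60 to 16.1 FPKM.

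UUO against CL asked how obstruction changed these genes. In WT kidneys 8 of the 9 genes tested fell (limma, adjusted p under 0.05) and Foxi1 did not pass the test. In Acot12-/- kidneys 7 of the 9 fell, the same genes without Atp6v1b1. Of all 13243 genes tested, 23.9% were called lower in WT and 27.2% in Acot12-/- kidneys (47.5% and 53.7% in either direction, 23.6% and 26.6% called higher). The sides did not overlap, with UUO lower, for 8 of the 9 in WT and 7 of the 9 in Acot12-/-, beside 35.8% and 27.6% of all genes. Without Acot12-/- CL replicate 2 the Acot12-/- count stayed at 7, with Atp6v1b1 called and Atp6v0d2 not. Medians over the 9 genes were -1.45 in WT and -1.5 in Acot12-/- on the log2(FPKM + 1) scale, beside 0.01 and -0.01 over all genes tested. All log2 changes below are on that scale, which understates the change of genes at low FPKM.

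Among the V1 subunits, Atp6v1g3, which encodes the kidney form of the stalk subunit G, changed most in WT. It was at 96.9, 108 and 63.2 FPKM in WT CL and at 16.1, 15.7 and 14.5 in WT UUO. The mutant CL kidneys had 49.0, 88.1 and 71.0 FPKM, and the mutant UUO kidneys 21.4, 15.9 and 20.1. The sides did not overlap in either genotype, and the UUO mean was 17.3% of the CL mean in WT and 27.6% in Acot12-/-. The log2 change was -2.42 (SE 0.24, limma adjusted p = 1.75e-05) in WT and -1.78 (SE 0.24, adjusted p = 6.64e-05) in Acot12-/-.

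Atp6v1c2, which encodes a tissue-restricted form of subunit C (chr12:17284721-17329359, minus strand, 15 exons), was at 16.3, 16.5 and 12.6 FPKM in WT CL and at 4.90, 4.08 and 5.42 in WT UUO. Its CL values in Acot12-/- were 16.1, 14.3 and 22.5 FPKM, against 9.42, 3.15 and 5.34 on the obstructed side, again without overlap. It fell by 1.47 in WT (SE 0.28, limma adjusted p = 0.00119) and by 1.5 in Acot12-/- (SE 0.28, adjusted p = 0.000798) on the log2 scale. In UUO libraries of Acot12-/- the highest value was that of replicate 1.

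Atp6v1b1 encodes the B1 subunit, whose loss causes distal renal tubular acidosis with deafness in humans. It was at 39.1, 38.4 and 32.5 FPKM in WT CL and at 27.5, 19.6 and 22.3 in WT UUO, which do not overlap. Acot12-/- CL kidneys had 45.9, 21.6 and 36.5 FPKM and Acot12-/- UUO kidneys 26.1, 18.6 and 23.1, so that CL replicate 2 lay among the UUO libraries. The change was -0.65 (SE 0.24, limma adjusted p = 0.0444, and 0.06 with equal totals) in WT and -0.54 (SE 0.24, adjusted p = 0.0784) in Acot12-/-. The UUO kidney had the lower value in all 6 pairs of kidneys, taken here and below by equal replicate number. Leaving out 1 of the 12 libraries at a time ended the WT call 7 times: without WT CL replicate 1, 2 or 3 (adjusted p = 0.120, 0.106 and 0.0601), WT UUO replicate 2 or 3 (0.148 and 0.101), or Acot12-/- UUO replicate 1 or 3 (0.0522 and 0.0588). In Acot12-/- the value ran from -0.84 to -0.31 with a library left out (adjusted p 0.00192 to 0.292) and was called only without CL replicate 2 among those fits. It was also called with the replicate block (-0.54, adjusted p = 0.0404), and with equal totals it was -0.01 (adjusted p = 0.962).

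Of the V0 subunits, Atp6v0a4 encodes the a4 form of the large membrane subunit, also a gene of inherited distal renal tubular acidosis (chr6:38048483-38124586, minus strand, 22 exons). It was at 75.9, 76.1 and 75.1 FPKM in WT CL and at 28.3, 27.1 and 25.7 in WT UUO. The mutant CL kidneys had 117, 118 and 148 FPKM, and their UUO counterparts 36.1, 23.1 and 39.3. The spread within both WT groups was small, and the sides were far apart in both genotypes. The log2 change was -1.45 (SE 0.19, limma adjusted p = 8.89e-05) in WT and -1.95 (SE 0.19, adjusted p = 7.62e-06) in Acot12-/-.

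Atp6v0d2, which encodes a restricted form of subunit d (chr4:19876841-19922605, minus strand, 8 exons), was at 21.9, 24.4 and 15.5 FPKM in WT CL and at 11.02, 7.51 and 15.3 in WT UUO. With Acot12 lost, CL values were 19.95, 32.0 and 21.0 FPKM, and UUO values 15.6, 10.2 and 14.2. In WT the sides were separated by a narrow margin, between CL replicate 3 and UUO replicate 3. The change was -0.84 (SE 0.27, limma adjusted p = 0.0219) in WT and -0.81 (SE 0.27, adjusted p = 0.0227) in Acot12-/-. With libraries set to equal total FPKM neither was called (-0.15, adjusted p = 0.604, and -0.29, adjusted p = 0.333). Leaving out 1 library ended the call 4 times in WT (without CL replicate 1 or 2, or UUO replicate 1 or 2; adjusted p 0.0540 to 0.103) and 2 times in Acot12-/- (-0.60, adjusted p = 0.0703, without CL replicate 2; adjusted p = 0.0972 without UUO replicate 2). Macrophage markers rose beside it, and of 6 osteoclast and lipid-laden macrophage genes 2 passed the filter, Acp5 with -0.65 (limma adjusted p = 0.0335) and Ctsk with 1.43 (adjusted p = 0.000111) in WT; the part of such cells in the level of Atp6v0d2 was not tested.

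Foxi1 was at 12.4, 14.5 and 10.98 FPKM in WT CL and at 16.1, 12.4 and 14.3 in WT UUO. The mutant CL libraries had 12.1, 9.60 and 15.99 FPKM, against 14.5, 10.98 and 12.6 on the obstructed side. The sides overlapped in both genotypes, and the UUO value was the lower one in 2 of 6 pairs. The log2 change was 0.16 (SE 0.19, 95% CI -0.25 to 0.57, limma adjusted p = 0.497) in WT and 0.03 (SE 0.19, 95% CI -0.38 to 0.44, adjusted p = 0.899) in Acot12-/-. The lower bounds of both intervals lie above the point estimates of the other 8 genes tested. Foxi1 RNA corresponded to roughly 318 to 883 fragments per library, from its longest annotated transcript and the recovered depth.

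Pendrin (Slc26a4) exchanges chloride for bicarbonate on the urine side of bicarbonate-secreting cells. It was at 32.1, 32.4 and 17.9 FPKM in WT CL and at 9.31, 8.81 and 6.42 in WT UUO. Acot12-/- CL kidneys had 30.4, 38.7 and 35.9 FPKM and Acot12-/- UUO kidneys 13.0, 5.91 and 6.25. All UUO libraries lay below all CL libraries, with log2 changes of -1.60 (SE 0.29, limma adjusted p = 0.000791) in WT and -2.01 (SE 0.29, adjusted p = 0.000109) in Acot12-/-.

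Slc26a7, an exchanger of proton-secreting cells found mainly in the outer medulla (chr4:14502430-14621805, minus strand, 19 exons), was near the limit of detection. It was at 0.453, 0.227 and 0.368 FPKM in WT CL, then 0.0410, 0.0220 and 0.125 in WT UUO. On the CL side the mutant had 0.406, 0.807 and 0.0860 FPKM, and on the obstructed side 0.0420, 0.0250 and 0. These values correspond to roughly 7 to 59 fragments in CL and 0 to 14 in UUO libraries. It did not enter the tests. With no filter on low values its log2 change was -0.34 (SE 0.14, limma adjusted p = 0.0879) in WT and -0.46 (SE 0.14, adjusted p = 0.0255) in Acot12-/-.

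Car2 (chr3:14886273-14900770, plus strand, 7 exons) was at 220.3, 262 and 237 FPKM in WT CL and at 140.5, 131 and 166 in WT UUO. Mutant CL kidneys had 329.8, 470.4 and 332 FPKM, and mutant UUO kidneys 206, 119 and 140.5. Car2 fell in both genotypes, though in WT not with equal totals (0.02), with a log2 change of -0.72 (SE 0.22, limma adjusted p = 0.0181) in WT and -1.30 (SE 0.22, adjusted p = 0.000365) in Acot12-/-. The WT call was lost without WT CL replicate 2, WT UUO replicate 1 or WT UUO replicate 2 (adjusted p = 0.0623, 0.0574 and 0.0702).

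Car4 (chr11:84957786-84966044, plus strand, 8 exons) was at 104, 122 and 169 FPKM in WT CL and at 22.0, 31.6 and 67.5 in WT UUO. On the CL side the mutant had 170.2, 107 and 177 FPKM, and on the obstructed side 67.5, 19.2 and 54.0. The sides did not overlap although the spread within groups was wide. The change was -1.81 (SE 0.46) in both genotypes, with limma adjusted p = 0.0071 in WT and 0.0057 in Acot12-/-. For Car2 and Car4, markers of the proximal tubule, which also holds both enzymes, fell beside them (9 of 10 in WT and 10 of 10 in Acot12-/-, medians -1.92 and -2.52), and their part was not tested.

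**Figure D2:**
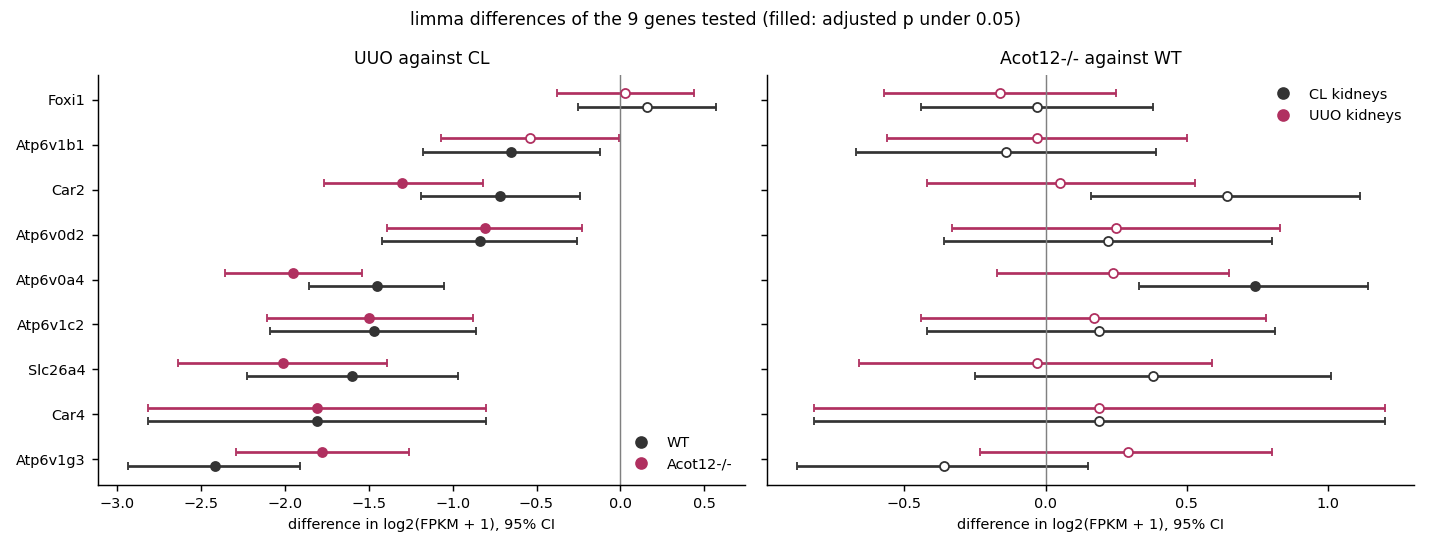
Differences in log2(FPKM + 1) of the 9 genes tested with 95% confidence intervals from limma, UUO against CL in each genotype on the left and Acot12-/- against WT on each side on the right; filled points passed the adjusted threshold. On the left the intervals of Foxi1 include 0 and those of the other genes lie below it; on the right the only filled point is Atp6v0a4 in CL kidneys at 0.74.

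Summed FPKM differed between the sides, at 799670 to 977981 in CL and 491078 to 686425 in UUO libraries, so the choice of scaling mattered. With all libraries set to equal totals, the median change of all genes moved to 0.62 in WT and 0.45 in Acot12-/-, and the share of calls that were lower went from 50.3% to 12.4% in WT and from 50.5% to 20.3% in Acot12-/-. Under that scaling 5 of the genes were called lower and Foxi1 was called higher in WT (0.85, limma adjusted p = 0.00195), and 6 were lower and Foxi1 higher in Acot12-/- (0.54, adjusted p = 0.0309). Atp6v1b1 and Car2 in WT turned to 0.06 and 0.02 (adjusted p = 0.836 and 0.955), and Atp6v0d2 was no longer called in either genotype. Relative to the median of all genes, the changes under equal totals were -0.56 for Atp6v1b1, -0.77 for Atp6v0d2, -2.33 for Atp6v1g3, -1.35 for Atp6v0a4, -1.44 for Atp6v1c2, -1.54 for Slc26a4, -0.60 for Car2, -1.71 for Car4 and 0.23 for Foxi1 in WT.

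A ratio of genes within a library does not depend on that scaling. Each of the 5 kidney-type subunits was therefore set against its ubiquitous paralog, which asked whether the balance of subunit forms moved in bulk cortex. The forms can lie in different cells there, and the part of cell composition in the ratios was not tested. FPKM divides each gene by its own length, so only differences of the ratio between sides were tested (exact permutation test within genotype, two-sided, 400 arrangements, smallest p 0.005, adjusted over the 5 ratios). The ratio fell for subunits a, G and C and did not pass the test for subunits B and d. With the kidneys taken as pairs, an exact sign-flip test over 6 pairs (smallest p 0.0312) gave an adjusted p of 0.0521 for each of the ratios of a, G and C.

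The FPKM ratio of Atp6v0a4 to Atp6v0a1 was 9.29, 8.77 and 8.11 in WT CL and 1.99, 1.82 and 1.56 in WT UUO. Acot12-/- CL kidneys ranged from 9.36 to 17.8 (highest in replicate 2), and Acot12-/- UUO kidneys had 2.34, 1.61 and 2.91. The difference over both genotypes was -2.35 on the log2 scale (exact permutation p = 0.005, adjusted p = 0.0125, lower in 6 of 6 pairs), and -2.21 without Acot12-/- CL replicate 2. Atp6v0a1, a form typical of neurons and many other cells, rose by 0.74 in WT (SE 0.22, limma adjusted p = 0.0154), a call lost without WT CL replicate 1 or WT UUO replicate 3 (adjusted p = 0.0519 and 0.0524). In Acot12-/- its change was 0.39 (adjusted p = 0.154), ran from 0.08 to 0.60 with a library left out, and was called without Acot12-/- CL replicate 3 (0.60, adjusted p = 0.0285) and with equal totals (0.90, adjusted p = 0.00433). Atp6v0a2, another form of subunit a, fell by 0.46 in WT (limma adjusted p = 0.0185) and by 0.67 in Acot12-/- (adjusted p = 0.00164). The ratio of Atp6v0a4 to Atp6v0a2 was not tested, so the size of the fall holds for Atp6v0a1 as the reference.

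The ratio of Atp6v1g3 to Atp6v1g1 was 0.319, 0.309 and 0.183 in WT CL and 0.0851, 0.0828 and 0.0698 in WT UUO. In Acot12-/- it was 0.137, 0.186 and 0.160 in CL and 0.0905, 0.0821 and 0.0754 in UUO, so that it was lower in every UUO than in every CL library. The log2 difference was -1.34 (exact permutation p = 0.005, adjusted p = 0.0125). The ubiquitous Atp6v1g1 itself fell by 0.76 in WT (limma adjusted p = 0.00314) and by 0.87 in Acot12-/- (adjusted p = 0.00101), but with equal totals it was not called (-0.03, adjusted p = 0.879, and -0.33, adjusted p = 0.122).

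The ratio of Atp6v1c2 to Atp6v1c1 was 0.249, 0.253 and 0.196 in WT CL and 0.0875, 0.0759 and 0.102 in WT UUO, and the mutant had 0.206, 0.166 and 0.316 in CL against 0.180, 0.0672 and 0.0991 in UUO. In Acot12-/- the sides overlapped at a single library of each. The log2 difference was -1.23 (exact permutation p = 0.01, adjusted p = 0.0167), and the ratio was lower in 6 of 6 pairs. Atp6v1c1 itself had -0.26 in WT (limma adjusted p = 0.12, and 0.0286 without Acot12-/- CL replicate 2). It fell by 0.61 in Acot12-/- (adjusted p = 0.0017). With equal totals it was 0.47 in WT (adjusted p = 0.0281) and -0.07 in Acot12-/- (adjusted p = 0.751).

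For Atp6v1b1 to Atp6v1b2 the difference was 0.13 (exact permutation p = 0.51, adjusted p = 0.51), with ratios of 0.145 to 0.331 in CL and 0.224 to 0.330 in UUO. For Atp6v0d2 to Atp6v0d1 it was -0.23 (exact permutation p = 0.485, adjusted p = 0.51; 0.02 without Acot12-/- CL replicate 2), with ratios of 0.154 to 0.441 in CL and 0.131 to 0.247 in UUO. The ubiquitous Atp6v1b2 fell by 0.55 in WT (limma adjusted p = 0.0132; 0.18 with equal totals; not called without WT CL replicate 3 or WT UUO replicate 1, adjusted p = 0.0668 and 0.0541) and by 0.93 in Acot12-/- (adjusted p = 0.000381; -0.39, adjusted p = 0.105, with equal totals). Atp6v0d1 had -0.45 in WT (limma adjusted p = 0.12; 0.0215 without Acot12-/- CL replicate 2; 0.27 with equal totals) and -0.83 in Acot12-/- (adjusted p = 0.00819; -0.29, adjusted p = 0.276, with equal totals).

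**Figure D3:**
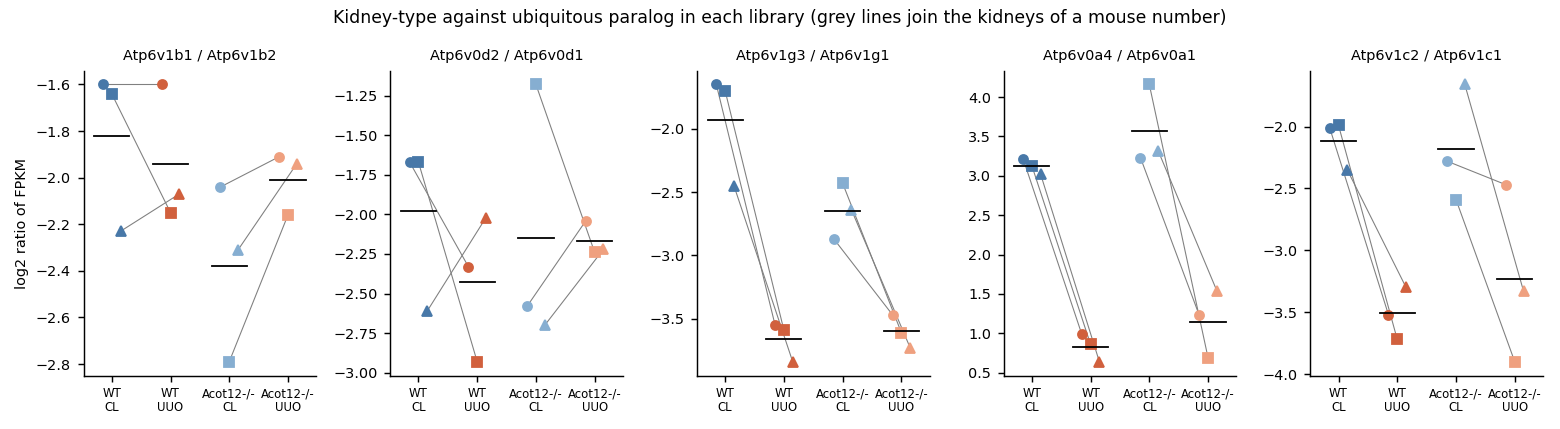
Log2 ratio of FPKM of each kidney-type pump subunit to its ubiquitous paralog (vertical axes differ) in the 12 libraries; black lines are group means and grey lines join CL and UUO kidneys of the same number. The joined lines all descend for subunits G, a and C, and they run in both directions for subunits B and d.

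Because the level of Foxi1 overlapped between the sides, the other 8 genes were also set against it within each library. Foxi1 was taken as the reference after its values had been seen, so these ratios are given as a description with no test. The log2 ratio to Foxi1 was lower in the UUO kidney in 6 of 6 pairs for each of the 8 genes. Each of the 8 was itself lower in 6 of 6 pairs, and Foxi1 in 2 of 6. The count for the ratios therefore follows largely from the choice of reference. The share of all genes with such a ratio was not computed. The mean difference over both genotypes was -2.27 for Atp6v1g3, -2.04 for Slc26a4, -1.95 for Car4, -1.84 for Atp6v0a4, -1.77 for Atp6v1c2, -1.12 for Car2, -0.99 for Atp6v0d2 and -0.72 for Atp6v1b1. Pendrin had a log2 ratio to Foxi1 of 1.37, 1.16 and 0.70 in WT CL and -0.79, -0.49 and -1.16 in WT UUO. In Acot12-/- the values were 1.33, 2.01 and 1.17 in CL and -0.16, -0.89 and -1.01 in UUO. The pendrin ratio was thus lower in every UUO than in every CL library of the same genotype. Its sign depends on the gene lengths used in FPKM, so only the difference between sides is read here.

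**Figure D4:**
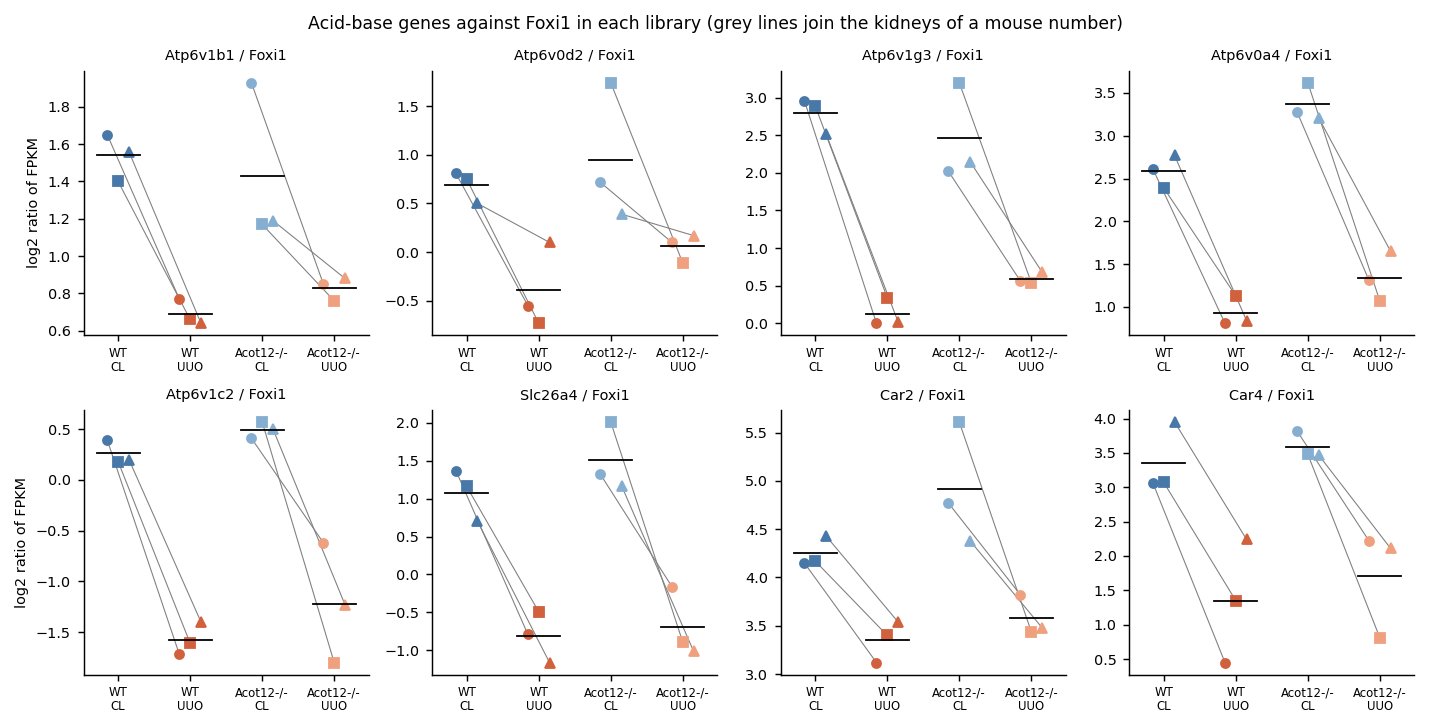
Log2 ratio of FPKM of 8 acid-base genes to Foxi1 (vertical axes differ) in the 12 libraries; black lines are group means and grey lines join CL and UUO kidneys of the same number. Every joined line descends from CL to UUO.

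The genes whose pattern over the 12 libraries was most like that of Foxi1, by the root mean square difference of centred log2(FPKM + 1), were Hpcal1 (0.109), Kdm8 (0.111), Med18 (0.129), 8430419L09Rik (0.130) and Stat5a (0.130). By the same measure the distance from Foxi1 was 0.396 to Atp6v1b1 and 1.15 to Atp6v1g3, the nearest and the farthest of the other 8 genes. Among all genes tested these ranked 6013 and 12721 by closeness to Foxi1. Genes that change little lie close to each other by this measure, whatever their function. For Atp6v1b1 the 5 most similar genes included Pde4c (0.132), 2610306M01Rik (0.152), Magix (0.153) and Atp5sl (0.156).

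Acot12-/- against WT asked whether the loss of Acot12 changed the same genes. In UUO kidneys none of the 9 genes was called by limma, and none had an unadjusted p under 0.05, beside 0.0151% of all genes called and 2.36% at that unadjusted level. The differences ranged from -0.16 for Foxi1 (95% CI -0.57 to 0.25) to 0.29 for Atp6v1g3 (95% CI -0.23 to 0.80). The widest interval was that of Car4 (0.19, 95% CI -0.82 to 1.20).

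In CL kidneys only Atp6v0a4 was called, higher in Acot12-/- (117 to 148 against 75.1 to 76.1 FPKM, log2 difference 0.74, SE 0.19, limma adjusted p = 0.0469), beside 4.48% of all genes called in either direction and 1.12% called higher. It was higher in each of the 3 Acot12-/- libraries than in any WT library. The call was lost with 9 of the 12 libraries left out in turn: each WT CL library (adjusted p 0.125 to 0.142), each WT UUO library (0.0682 to 0.0780), Acot12-/- CL replicate 1 (0.0946) or 3 (0.0977), and Acot12-/- UUO replicate 1 (0.0617). Without Acot12-/- CL replicate 2 it was 0.79 (adjusted p = 0.0180). Car2 also had all Acot12-/- CL libraries (329.8 to 470.4 FPKM) above all WT CL libraries (220.3 to 262), with a log2 difference of 0.64 (SE 0.22) that did not pass the adjusted threshold (limma adjusted p = 0.14, unadjusted p = 0.0133). Of all genes, 8.60% had every Acot12-/- CL library above every WT CL library. The summed FPKM of proximal tubule markers was 5620 to 8510 in Acot12-/- CL and 4600 to 5810 in WT CL, with 0 of 10 markers called. Of 11 macrophage markers 4 were called lower in Acot12-/- CL (median -0.88, summed FPKM 63.3 to 139 against 189 to 215 in WT CL), and the part of either cell type in these differences was not tested.

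The interaction of genotype and UUO, the test of whether obstruction changed a gene to a different degree in the mutant, called none of the 9 genes in limma, and none had an unadjusted p under 0.05, beside 0.106% of all genes called and 10.5% at that unadjusted level. The largest estimates were 0.65 for Atp6v1g3 (95% CI -0.08 to 1.38), -0.58 for Car2 (95% CI -1.26 to 0.09), -0.50 for Atp6v0a4 (95% CI -1.08 to 0.08) and -0.41 for Slc26a4 (95% CI -1.30 to 0.47). The UUO effect on Atp6v1b1, called in WT and not in Acot12-/-, had an interaction of 0.11 (95% CI -0.64 to 0.86).

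The remaining genes of the proton pump and of the same cells place these values. Of 18 ubiquitous V-ATPase subunits, 10 fell and 2 rose in WT and 10 fell and 1 rose in Acot12-/-, with medians of -0.50 and -0.64. Atp6v1a, the catalytic A subunit that has no kidney-type form, was at 218, 182 and 208 FPKM in WT CL and 57.3, 52.6 and 63.6 in WT UUO, a change of -1.79 (SE 0.18, limma adjusted p = 1.89e-05). Other stalk and core subunits such as Atp6v1e1 (-1.30, adjusted p = 7.33e-05) and Atp6v1h (-1.26, adjusted p = 0.000243) fell with it. Tcirg1, the a3 subunit known from osteoclasts and immune cells, rose from 9.58, 9.81 and 7.81 to 17.9, 18.6 and 17.0 FPKM in WT (0.91, adjusted p = 0.00294) and by 1.78 in Acot12-/- (adjusted p = 2.15e-05), beside the macrophage markers, of which 10 of 11 rose in WT and 11 of 11 in Acot12-/- (medians 1.92 and 3.34); the part of macrophages in the level of Tcirg1 was not tested.

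Of 16 other genes of intercalated cells 14 were tested, and 8 fell and 1 rose in WT, whereas 8 fell and 3 rose in Acot12-/- (medians -0.88 and -0.96). The chloride-bicarbonate exchanger AE1 (Slc4a1), which returns bicarbonate to the blood in proton-secreting cells, was at 9.68, 7.43 and 6.76 FPKM in WT CL and at 0.857, 0.631 and 0.779 in WT UUO. Its change was -2.34 (SE 0.21, limma adjusted p = 1.06e-05), and the same gene is also a red cell protein. Red cell markers, with Slc4a1 included in the sum, were uneven among WT CL libraries (summed FPKM 73.4, 646 and 253) and at 67.4 to 94.3 in WT UUO. Of 4 tested 2 fell in WT, Slc4a1 itself and Alas2 (-1.22, limma adjusted p = 0.0387), and 1 of 4 fell in Acot12-/-. The part of blood was not tested. The ammonia transporters Rhbg and Rhcg fell by 1.88 (adjusted p = 0.00181) and 1.34 (adjusted p = 0.00319), the receptor Oxgr1 by 1.79 (adjusted p = 4.85e-05), the chloride channel subunit Bsnd by 1.53 (adjusted p = 0.000277) and Hepacam2 by 0.82 (adjusted p = 0.0115) in WT. With equal totals Rhcg and Hepacam2 were not called in WT (-0.63, limma adjusted p = 0.0549, and -0.18, adjusted p = 0.549), and the call of Hepacam2 was lost without WT CL replicate 1 (0.0508) or WT UUO replicate 2 (0.0575). Slc4a9 (AE4) of bicarbonate-secreting cells did not pass the test (-0.50, adjusted p = 0.107, and -0.38, adjusted p = 0.207, in Acot12-/-; 0.15 and 0.12 with equal totals). Without Acot12-/- CL replicate 2 it was called lower in both genotypes (-0.50, limma adjusted p = 0.0354, and -0.64, adjusted p = 0.0196. The receptor tyrosine kinase Kit rose, from 2.08, 2.22 and 1.61 to 4.85, 3.50 and 3.84 FPKM in WT (0.77, adjusted p = 0.00222) and by 0.68 in Acot12-/- (adjusted p = 0.00354).

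The carbonic anhydrases held genes that fell and genes that rose. Besides Car2 and Car4, 11 of 14 others were tested, and 7 fell and 2 rose in WT while 5 fell and 2 rose in Acot12-/- (medians -0.91 and -0.71). Membrane-bound Car14 went from 58.8, 38.4 and 55.0 to 5.02, 4.72 and 8.72 FPKM in WT (-2.87, SE 0.51, limma adjusted p = 0.000725) and Car12 from 64.5, 62.1 and 64.9 to 21.8, 17.2 and 22.3 (-1.60, SE 0.24, adjusted p = 0.00023). Cytosolic Car13 rose in contrast from 1.52, 2.66 and 2.00 to 6.80, 6.36 and 4.97 FPKM (1.21, SE 0.19, adjusted p = 0.000287), and Car11, an inactive relative, rose by 0.72 (adjusted p = 0.0152). Of the other Slc26 exchangers 4 of 9 were tested, with none called in WT and 2 called lower in Acot12-/-. Of 6 genes of proximal bicarbonate and ammonia handling 5 fell in each genotype (medians -1.32 and -1.55), among them the sodium-proton exchanger Slc9a3 (-1.76, adjusted p = 0.000231) and the sodium bicarbonate cotransporter Slc4a4 (-1.44, adjusted p = 0.000282) in WT.

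Neighbouring cell types moved as well. Of 11 principal cell markers 7 fell in WT, and 4 fell and 1 rose in Acot12-/- (medians -0.82 and -0.54). The largest falls in WT included Aqp2 with -1.91 (limma adjusted p = 0.0344) and Kcnj1 with -2.06 (adjusted p = 0.000215). Aqp2 was not called in Acot12-/- (-0.54, adjusted p = 0.522). The UUO mean of Hsd11b2 was 91.9% of the CL mean in WT and 85.2% in Acot12-/-, and that of Gata3 was 127% and 161%. Of 8 markers of the loop of Henle and the distal tubule 6 fell in each genotype (medians -2.18 and -1.87), and Pvalb was listed at 0 in at least 1 WT UUO library. All 7 markers of injured tubule rose in both genotypes (medians 4.77 and 5.19), Havcr1 by 7.33 in WT (adjusted p = 9.16e-07). Whether the fall of the acid-base genes differed from that of these lists was not tested.

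**Figure D5:**
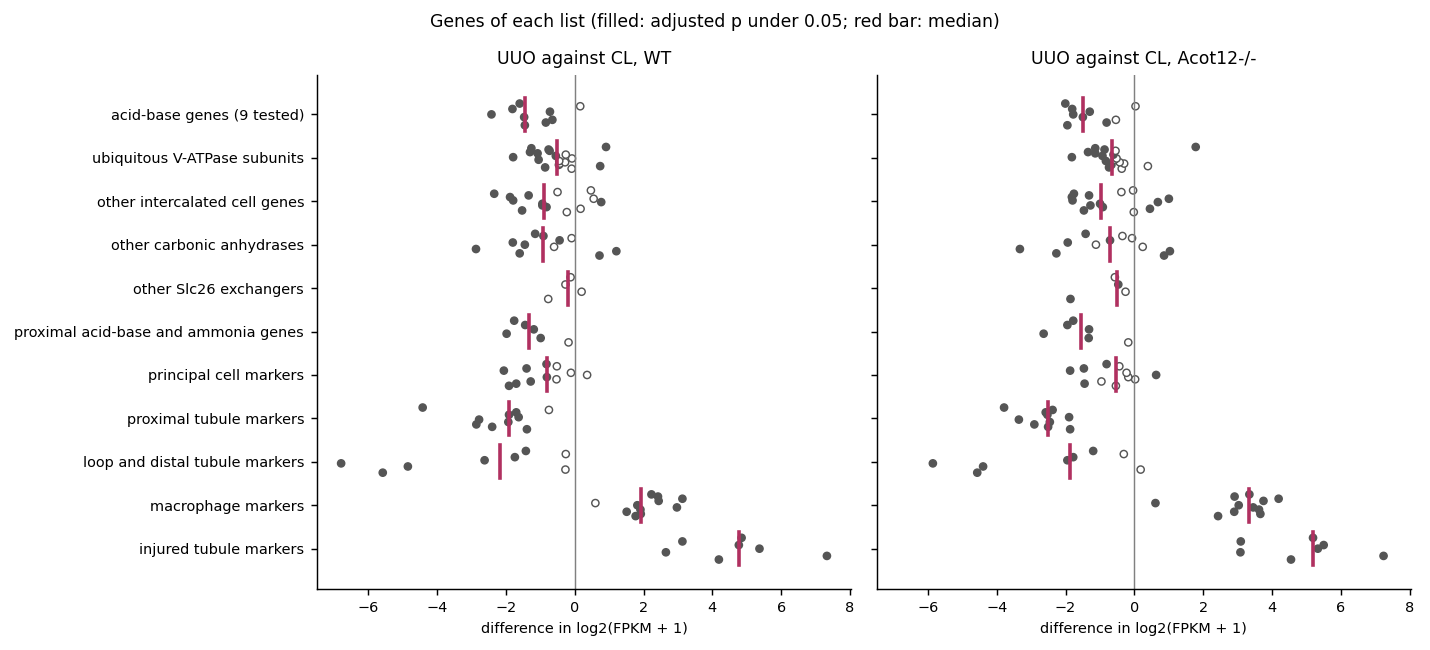
Differences in log2(FPKM + 1), UUO against CL, of the tested genes of each list in WT (left) and Acot12-/- (right); each point is a gene, filled when it passed the adjusted threshold, and the red bar is the median of the list. The medians of the acid-base genes (-1.45 and -1.5) lie between those of the ubiquitous pump subunits (-0.50 and -0.64) and the proximal tubule markers (-1.92 and -2.52). The ranges of these lists overlap, and the proximal acid-base and ammonia genes have medians of -1.32 and -1.55.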

How the data were processed

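RNA-seq of kidney cortex was analysed for 12 libraries in 4 groups. Total RNA was made into strand-marked libraries (NEBNext Ultra II Directional) and read on a NovaSeq instrument, and an outside company trimmed, mapped and normalized the reads. The deposited values are FPKM for 23183 symbols, a unit not named with them and derived here from their steps, which scale with transcript length. The submitters' processing notes name mm10 and edgeR without their roles, and the aligner is not given in the sources used here. No 2 libraries were identical.

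Genes with at least 1 FPKM in at least 3 libraries were tested, less 28 listed at 0 beside at least 10 FPKM in the same group, which left 13243. Models were fitted with limma 3.58.1 in R 4.3.3 on log2(FPKM + 1). One model held the 4 groups and had a variance trend, and p was adjusted over these genes by Benjamini-Hochberg with a threshold of 0.05. Ratios of paralogs were tested by exact permutation. FPKM hold no counts, so counting error enters only through the spread between libraries, and p-values measure that spread.

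Pairs were taken from equal replicate numbers within a genotype. The sample titles do not say that a number marks a mouse, so the pairing is inferred. Residuals of same-numbered CL and UUO libraries correlated at 0.13 to 0.36 in WT and 0.19 to 0.32 in Acot12-/-. Those of different numbers correlated at -0.36 to 0.14 in WT and -0.18 to -0.07 in Acot12-/-. No source gives a sequencing batch. The acid-base genes, the other lists (ubiquitous pump subunits, other intercalated cell genes, other carbonic anhydrases, other Slc26 exchangers, proximal acid-base genes, and markers of principal cells, proximal tubule, loop and distal tubule, macrophages, osteoclasts, red cells and injured tubule) and the tests were chosen with earlier results of these data known. Named genes are the 10, the ubiquitous paralogs, Slc4a1, Slc4a9, Rhcg, Hepacam2, up to 4 called genes per list and direction with the largest change in WT, and the 5 genes most like Foxi1 and Atp6v1b1, of which 1 is not reported here. Of the symbols, 22148 are in GENCODE vM21. Alternatives were another pseudocount, no filter, 2 other scalings, no trend, fewer groups in the fit, the replicate block, zeros kept, a fold limit of 2 and each library left out. Those for the ratios to Foxi1 were chosen after seeing the data.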

Additional observations from a re-analysis of the deposited data

How the results depend on the processing

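Counts of acid-base genes called stayed within 1.5 times the value reported under a pseudocount of 0.1, no filter, median-ratio size factors, no variance trend, only the groups compared, the replicate block and kept zeros, except for Acot12-/- against WT in CL kidneys. There the count of 1 became 0 with no filter, with only the groups compared and with a fold of at least 2, and was 0 to 1 with a library left out. With equal totals the genes called lower went from 8 to 5 in WT and from 7 to 6 in Acot12-/-, and Foxi1 was called higher in both. Requiring a fold of at least 2 lowered the WT UUO count from 8 to 5. With a library left out it was 5 to 8, and 5 without WT CL replicate 2 or WT UUO replicate 2; in Acot12-/- it was 6 to 7. Calls over all genes moved from 593 to 1 in the CL comparison with only the groups compared, to 333 with equal totals, to 252 with a fold of at least 2 and to 2923 without Acot12-/- CL replicate 2. In the interaction they moved from 14 to 203 with the replicate block and to 916 without that library, and no acid-base gene was among them. With a fold of at least 2 they moved from 6290 to 2634 in WT and from 7114 to 3424 in Acot12-/- UUO against CL.

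The replicate block raised the Acot12-/- UUO count from 7 to 8 (Atp6v1b1). Sign-flips over the 6 pairs, whose smallest p is 0.0312, gave an adjusted p of 0.0521 for the ratios of Atp6v1g3 (-1.34), Atp6v0a4 (-2.35) and Atp6v1c2 (-1.23) to their paralogs; the block also put Tfcp2l1, a collecting duct transcription factor named after its values were seen, in WT past the threshold (0.47, limma adjusted p = 0.0312), and it changed no other call among the genes that were refitted under each alternative.

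Equal totals turned the sign, in WT UUO against CL, of Atp6v1b1 (0.06), Car2 (0.02), Atp6v1b2 (0.18), Atp6v0d1 (0.27), Atp6v1c1 (0.47) and Slc4a9 (0.15), and in Acot12-/- of Slc4a9 (0.12) and Tfcp2l1 (0.50). They also turned Car2 in Acot12-/- against WT UUO (-0.12) and the interactions of Atp6v1b1 (-0.08) and Atp6v0d2 (-0.14), and median-ratio size factors that of Car4 (0.02).

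Leaving out a library turned signs of values near 0: in Acot12-/- UUO against CL, Foxi1 (-0.13 to 0.21) and Tfcp2l1 (-0.24 to 0.12); in Acot12-/- against WT UUO, Atp6v1b1 (-0.14 to 0.10), Atp6v1c2 (-0.17 to 0.49), Slc26a4 (-0.36 to 0.15), Car2 (-0.17 to 0.22) and Car4 (-0.16 to 0.73); in CL, Atp6v1b1 (-0.37 to 0.16) and Foxi1 (-0.21 to 0.13); in the interaction, Atp6v1b1 (-0.19 to 0.33), Atp6v0d2 (-0.21 to 0.26), Atp6v1c2 (-0.36 to 0.30), Foxi1 (-0.30 to 0.04) and Car4 (-0.35 to 0.53); and the ratio of Atp6v0d2 to Atp6v0d1 (-0.38 to 0.02). The causes were not tested.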
